A study of Mus musculus with 4 samples.

Results

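The 16_ooDS_DV cells are retinal ganglion cells (RGCs) that the authors' type column assigns to an ON-OFF direction-selective type of the dorsal-ventral kind. They were taken as every cell with that value in the column, 5895 of 131379 RGCs. The study measured a custom panel of 300 genes in situ with the 10x Xenium platform, which counts single fluorescent spots (puncta) of probed transcripts in each segmented cell. It used 5 retinas of wild-type C57BL/6 mice, kept without manipulation or treatment and with no age given, cut en face at 20 µm so that each section runs parallel to the retinal surface. Every cell carries 1 of 45 type names. The other types used for comparison are 14_ooDS_Cck (3966 cells) and 12_ooDS_NT (4456 cells), which are ON-OFF direction-selective types of the same retinas, and the 44 other types as a whole.

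ON-OFF direction-selective ganglion cells fire at both the onset and the offset of light and respond best to motion in a preferred direction. That preference arises from inhibition by starburst amacrine cells, which release GABA and acetylcholine onto the ganglion cell dendrites. Separate groups prefer separate directions of motion, and each group spreads over the whole retina with its cell bodies spaced apart from one another. Whether a type compared here pools several such groups was not tested.

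The retinas held 1442, 1848, 682, 1262 and 661 of the cells. The type made up 4.59% ± 0.39 of all RGCs (SD, n = 5 retinas), against 3.08% ± 0.20 for 14_ooDS_Cck and 3.43% ± 0.16 for 12_ooDS_NT, and was the fifth most frequent of the 45 types. Over the 30 sections with at least 500 cells the share lay between 3.30% and 7.42%, with a median of 4.47%. Both extremes came from retina 2.

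A 16_ooDS_DV cell held a median of 385, 335, 317.5, 341 and 356 puncta in retinas 1 to 5, against 324, 296, 283, 294 and 303 in the other RGCs. The type was thus the deeper group in each retina, and the levels below are therefore given per 10000 puncta of a cell group unless a value is named as puncta per cell. The depth of a single cell ran between 100, which was also the lowest of the whole table, and 1844 puncta. The labels do not say whether each retina is from its own mouse, and the p-values therefore cover only the spread between these 5 retinas, which may be technical. The types may have been assigned from the same 300 genes, so differences in gene level between types are given as a description with no test.

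Of the 3 markers given for the type, Mmp9 set it apart from the other ON-OFF types, and Tfap2d and Gabrg3 did not. Mmp9 encodes a secreted metalloproteinase that cuts extracellular matrix. It averaged 8.42, 7.18, 6.26, 7.40 and 6.55 puncta per 16_ooDS_DV cell in retinas 1 to 5, against 0.781, 0.71, 0.804, 0.557 and 0.638 puncta per 14_ooDS_Cck cell and 0.809, 0.810, 0.838, 0.709 and 0.712 per 12_ooDS_NT cell. The lowest retina of 16_ooDS_DV lay far above the highest retina of either other type. At least 1 Mmp9 punctum was found in 74.5% to 86.3% of 16_ooDS_DV cells per retina, against 29.4% to 39.3% of 14_ooDS_Cck cells.

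Tfap2d, which encodes the AP-2 delta transcription factor, gave 1.39, 1.43, 1.16, 1.19 and 1.16 puncta per 16_ooDS_DV cell, against 1.76, 2.03, 1.29, 1.63 and 1.56 per 14_ooDS_Cck cell. Gabrg3, which encodes the gamma-3 subunit of the GABA-A receptor, gave 3.33, 2.89, 2.46, 2.59 and 2.59 puncta per 16_ooDS_DV cell, against 3.55, 3.12, 2.63, 3.01 and 2.92 per 14_ooDS_Cck cell. Both genes were lower in 16_ooDS_DV than in 14_ooDS_Cck in each of the 5 retinas. The ranges overlapped in puncta per cell but not per 10000 puncta, where Tfap2d lay between 30.9 and 39.1 in 16_ooDS_DV, against 45.2 to 71.0 in 14_ooDS_Cck, and Gabrg3 between 69.1 and 81.1, against 91.9 to 109. Among all 45 types, ordered by mean level per 10000 puncta, 16_ooDS_DV was the third for Mmp9, the fifth for Tfap2d and the eighth for Gabrg3.

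**Figure D1:**
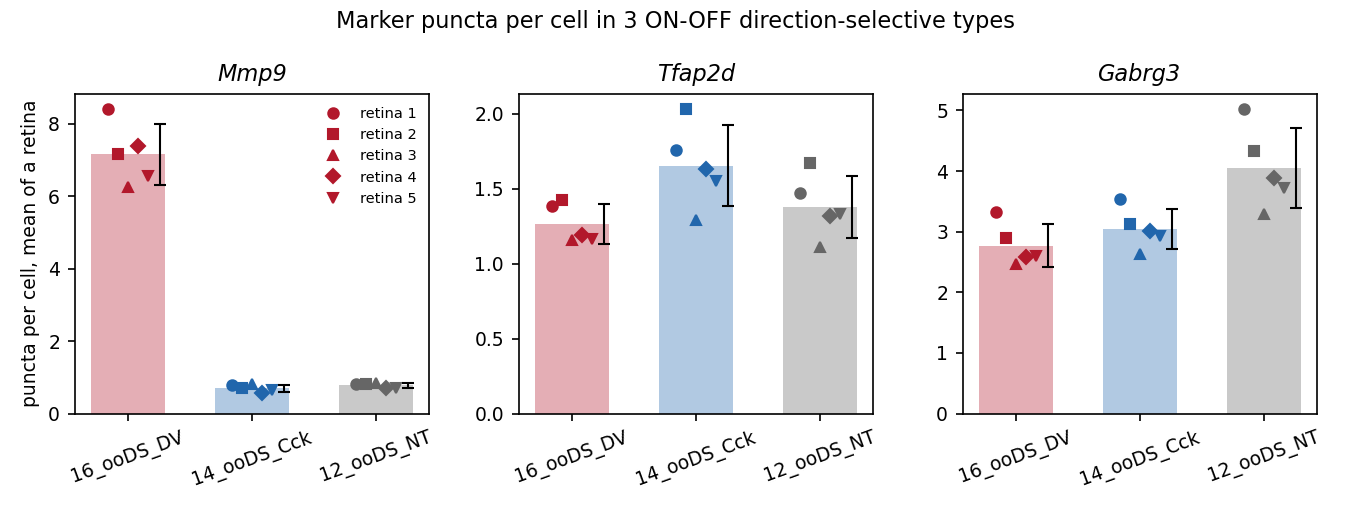
Mean puncta per cell of Mmp9, Tfap2d and Gabrg3 (y axis) in 16_ooDS_DV, 14_ooDS_Cck and 12_ooDS_NT cells (x axis). Points are the 5 retinas, bars their mean and black lines the SD. Mmp9 lies between 6.26 and 8.42 puncta in 16_ooDS_DV and under 0.84 in the other types. The means of Tfap2d and Gabrg3 are no higher in 16_ooDS_DV than in them. In retina 3 alone, Tfap2d is at 1.16 in 16_ooDS_DV and 1.11 in 12_ooDS_NT.

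The types with more Mmp9 were 10_Novel, at 445 ± 26.8 per 10000 puncta, and 24_Novel, at 326 ± 13.4, beside 192 ± 14.6 in 16_ooDS_DV (SD, n = 5 retinas each). The next type down, 23_W3D2, stood at 50.3 ± 4.48. So 3 types carried high Mmp9, and the gaps between them were larger than the SDs. The combination of the 3 markers was most frequent in 16_ooDS_DV. All 3 were detected together in 44.7% of its cells, against 21.2% of 14_ooDS_Cck cells and 18.8% of 12_ooDS_NT cells. None of them was detected in 6.51% of its cells, against 6.56% of 14_ooDS_Cck and 4.08% of 12_ooDS_NT cells. These shares are not scaled to depth. The median depth was 349 puncta in 16_ooDS_DV, 287 in 14_ooDS_Cck and 311 in 12_ooDS_NT.

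Set against the unweighted mean of the 44 other types, 9 of the 300 panel genes were at least 2-fold higher in 16_ooDS_DV in every retina (3% of the panel), 60 were at least 2-fold lower (20%) and 231 were neither. The 9 were Mmp9, Cbln4, Calb1, Tfap2d, Tafa1, Syndig1l, Pcdh8, Pcdh11x and Gabrg3. Log2 ratios compare levels per 10000 puncta with 0.1 added. A few types with a high level raise such a mean, and the median log2 ratio of the whole panel was -0.36. Whether the excess of low genes is a trait of the type was not tested. In each gene list below, the counts are to be set beside these shares of 3% and 20%.

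Mmp9 and Cbln4 had the highest ratios. The log2 ratio of Mmp9 was 2.43 ± 0.12. Cbln4, a cerebellin secreted at synapses, had 2.16 ± 0.27 (SD, n = 5 retinas). It was at 12.9, 12.2, 9.41, 11.4 and 8.86 per 10000 puncta in 16_ooDS_DV, against 2.42, 2.32, 2.50, 2.16 and 2.38 in the mean of the other types. No type exceeded 16_ooDS_DV in Cbln4, although its level was low, at 0.410 ± 0.084 puncta per cell. Tafa1, a secreted chemokine-like protein, had a log2 ratio of 1.60 ± 0.10, and the protocadherins Pcdh8 and Pcdh11x had 1.47 ± 0.08 and 1.40 ± 0.03. Of the 9 adhesion and matrix genes on the panel, 3 were higher, 2 were lower and 4 were neither. Their median log2 ratio was -0.86, beside the panel's -0.36, so the group had no common direction.

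Calb1, which encodes the calcium buffer calbindin, was at 210, 224, 211, 232 and 189 per 10000 puncta in 16_ooDS_DV, against 57.6, 59.5, 56.8, 57.5 and 55.1 in the mean of the other types. Its log2 ratio was 1.89 ± 0.08, and 24_Novel and 43_AlphaONS were the only types above it. Syndig1l, of the synapse differentiation-inducing family, had 1.55 ± 0.05, and Tfap2d and Gabrg3 had 1.67 ± 0.08 and 1.2 ± 0.07. Cacng3, an auxiliary subunit of AMPA receptors, was higher by 0.90 ± 0.07 and so stayed under 2-fold.

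Opn4, the photopigment gene of intrinsically photosensitive cells, was lowest, with a log2 ratio of -3.88 ± 0.41. Its level was 0.83, 0.77, 0.71, 0.64 and 1.01 per 10000 puncta in 16_ooDS_DV, against 15.7, 14.05, 11.8, 13.8 and 9.93 in the mean of the other types. The T-box factors Tbx20 and Eomes, which accompany Opn4 in photosensitive cells, had -3.04 ± 0.49 and -2.29 ± 0.30. The neuropeptide genes Penk (enkephalins) and Gal (galanin) had -2.83 ± 0.28 and -2.76 ± 0.13. Scn9a, a voltage-gated sodium channel, had -2.81 ± 0.25 and was lower in 16_ooDS_DV than in every other type. The remaining genes among the 10 lowest were Neurod2 (-2.48 ± 0.22), Igf1 (-2.35 ± 0.31), Lmo2 (-2.35 ± 0.30) and Atp2b4 (-2.32 ± 0.20), a bHLH factor, a growth factor, a LIM-only cofactor and a calcium pump. Of 6 neuropeptide genes, 3 were lower and none was at least 2-fold higher in every retina, with a median log2 ratio of -0.95. Of 17 transcription factors of RGC types on the panel, 1 was higher (Tfap2d), 9 were lower and 7 were neither, beside 3% higher and 20% lower over the panel.

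**Figure D2:**
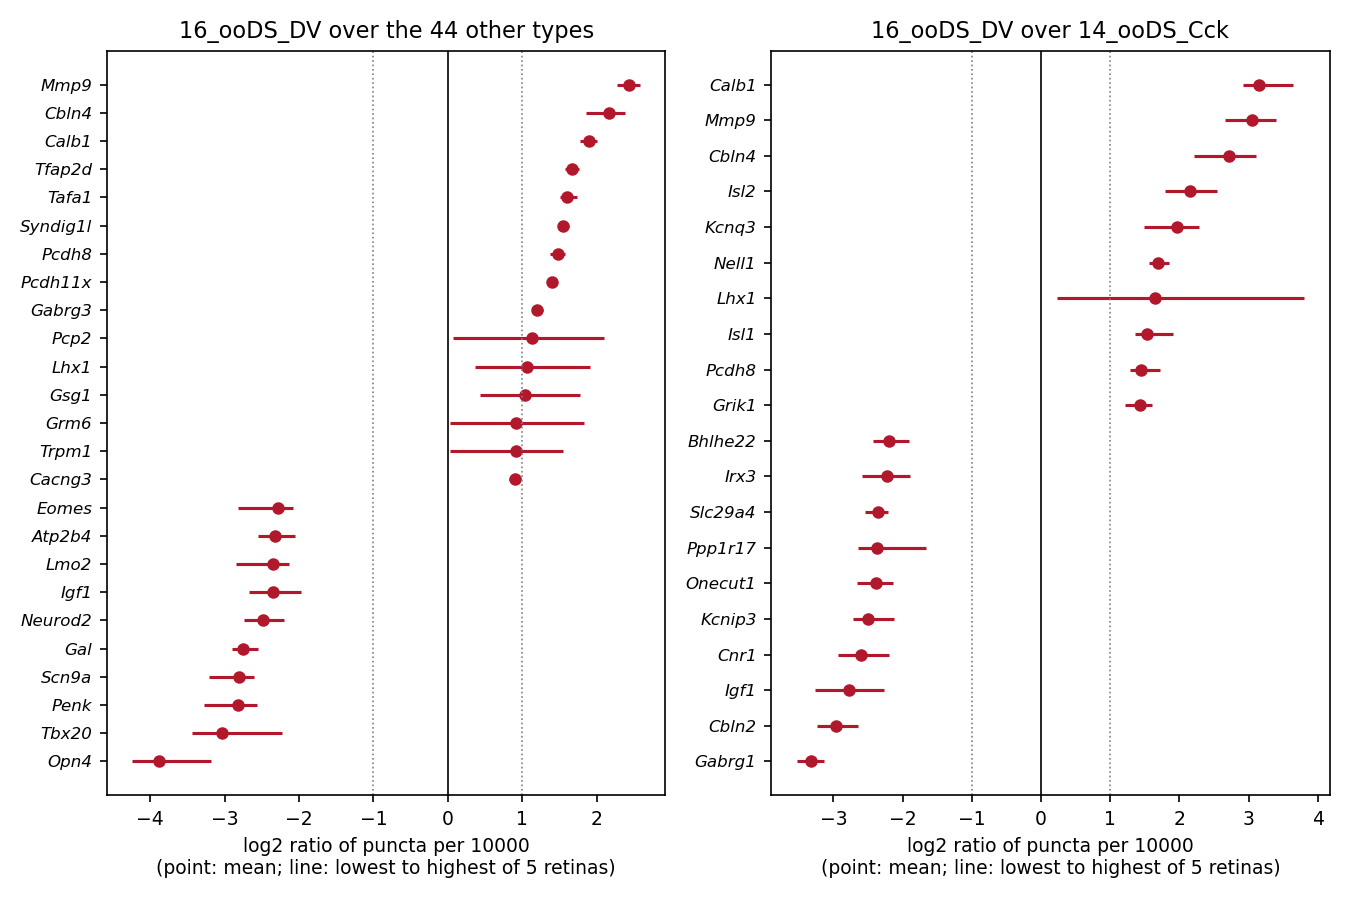
Log2 ratio of puncta per 10000 (x axis) for the genes named by rule (y axis), for 16_ooDS_DV over the 44 other types (left) and over 14_ooDS_Cck (right). Points are means of 5 retinas, lines run between the lowest and the highest retina, and dotted lines mark 2-fold. Pcp2, Lhx1, Gsg1, Grm6 and Trpm1 have wide lines, with a log2 ratio between 0.03 and 1.83 for Grm6 against the other types.

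Among inhibitory receptor genes the direction differed between subunits. Of 15 GABA and glycine receptor genes, 1 was higher (Gabrg3), 2 were lower, Gabrg1 among them, and 12 were neither, with a median log2 ratio of 0.43. The alpha-2 subunit gene Gabra2 had a log2 ratio of 0.85 ± 0.06. The ratios of further GABA receptor subunits were 0.69 ± 0.11 for Gabrb1, 0.52 ± 0.21 for Gabra4 and -1.30 ± 0.12 for Gabrg1. Gabrg1 was thus the lower and Gabrg3 the higher of these gamma subunits. Of the glycine receptor genes, Glrb had 0.25 ± 0.03, Glra1 -0.86 ± 0.16 and Glra2 -0.87 ± 0.04. The rho subunits and Gabra3 had ratios between -0.75 and 0.81, at no more than 5.28 per 10000 puncta.

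Of 14 glutamate receptor genes, none was at least 2-fold higher in every retina and only Gria1, an AMPA receptor subunit, was lower, at -1.28 ± 0.12. The NMDA receptor subunit Grin1 was higher by 0.44 ± 0.03 and only 2 types exceeded it, whereas the AMPA receptor subunit Gria2 was at -0.61 ± 0.03, the 41st of 45 types. The other 11 had ratios between -1.14 (Grin3a) and 0.91 (Grm6). Among ion channel genes, 1 of 26 for potassium channels, 1 of 16 for calcium channels and 3 of 9 for sodium channels were at least 2-fold lower in every retina, and none of the 3 groups held a higher one, beside 20% lower and 3% higher over the panel. The calcium list took every symbol starting with Cacn, so it also holds Cacng genes such as the AMPA receptor subunit gene Cacng3.

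The panel holds no acetylcholine receptor gene. Of the starburst list it holds only Chat, the enzyme that makes acetylcholine, at 8.09 ± 0.32 per 10000 puncta in 16_ooDS_DV and 8.50 ± 0.99 in the mean of the other types. Of 14 genes listed for ON-OFF direction-selective cells, 3 are on the panel, namely Calb1, Cck and Tfap2d.

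Against 14_ooDS_Cck, 12 genes were at least 2-fold higher in 16_ooDS_DV in every retina (4% of the panel) and 32 were at least 2-fold lower (10.7%). Calb1 led, with a log2 ratio of 3.15 ± 0.28, and its levels in 14_ooDS_Cck were 23.6, 27.3, 25.7, 18.5 and 24.8 per 10000 puncta. Mmp9 and Cbln4 followed with 3.05 ± 0.27 and 2.71 ± 0.33. The LIM homeodomain factors Isl2 and Isl1 were higher by 2.16 ± 0.33 and 1.54 ± 0.22. Kcnq3, a subunit of the M-type potassium channel, was at 40.5, 37.5, 33.4, 39.7 and 35.7 per 10000 puncta in 16_ooDS_DV, against 9.22, 10.1, 11.9, 8.10 and 8.45 in 14_ooDS_Cck. That is a log2 ratio of 1.97 ± 0.31 with no overlap between the types. Nell1, Pcdh8 and the kainate receptor gene Grik1 had ratios of 1.69 ± 0.14, 1.45 ± 0.18 and 1.42 ± 0.15. Anxa2, Tafa1 and Cacng3 completed the 12, with ratios between 1.27 and 1.41.

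The lower genes included receptors and synaptic organizers. Gabrg1, the gamma-1 subunit of the GABA-A receptor, was at 3.92, 4.48, 4.73, 4.04 and 4.67 per 10000 puncta in 16_ooDS_DV, against 46.4, 45.97, 42.2, 46.1 and 42.9 in 14_ooDS_Cck, a log2 ratio of -3.33 ± 0.18. Cbln2, a second cerebellin, was at 6.95, 7.39, 8.24, 7.18 and 8.26 in 16_ooDS_DV, against 60.1, 53.9, 51.8, 68.2 and 65.0 in 14_ooDS_Cck, a log2 ratio of -2.95 ± 0.23. The cerebellins thus ran in opposite directions between these types, with Cbln4 high in 16_ooDS_DV and Cbln2 high in 14_ooDS_Cck. Igf1, the cannabinoid receptor gene Cnr1 and the potassium channel partner Kcnip3 had -2.77 ± 0.40, -2.60 ± 0.27 and -2.50 ± 0.22. The transcription factors Onecut1, Irx3 and Bhlhe22 had -2.38 ± 0.21, -2.22 ± 0.30 and -2.20 ± 0.19, and Ppp1r17 and Slc29a4, a phosphatase inhibitor and a transporter, had -2.37 ± 0.42 and -2.35 ± 0.13. Cck itself was at 6.09 ± 0.91 per 10000 puncta in 16_ooDS_DV and 19.4 ± 2.47 in 14_ooDS_Cck, a log2 ratio of -1.66 ± 0.08.

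Against 12_ooDS_NT, 10 genes were at least 2-fold higher in every retina (3.33%) and 23 were lower (7.67%). Calb1 (3.10 ± 0.26), Mmp9 (3.00 ± 0.23), Cbln4 (2.91 ± 0.23), Isl2 (2.23 ± 0.23), Isl1 (1.68 ± 0.13) and Grik1 (1.42 ± 0.10) were past 2-fold there too. Pcdh11x was 3.04 ± 0.26 higher than in 12_ooDS_NT, and Cck was 2.41 ± 0.42 higher. Neurod2 was at -4.62 ± 0.36, the lowest ratio in that comparison. Kcnq3 was not higher here, at 37.3 ± 2.89 per 10000 puncta in 16_ooDS_DV and 55.2 ± 5.65 in 12_ooDS_NT.

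By the Spearman correlation of levels over the 300 genes, computed in each retina and averaged, the likest type to 16_ooDS_DV was 24_Novel (0.953), followed by 10_Novel (0.934) and 21_Tbr1_S2 (0.927). The ON-OFF types 12_ooDS_NT and 14_ooDS_Cck were the fifth and the sixth, at 0.915 and 0.907. The genes share the panel and the libraries, so these are descriptions. The other types with high Mmp9, 10_Novel and 24_Novel, were thus also the nearest on the panel.

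Markers of other retinal cells were set against the other types by list. Of 14 amacrine genes 2 were lower and none higher, and their summed level was between 357 and 377 per 10000 puncta over the retinas, against 406 to 432 in the mean of the other types. Of 6 horizontal cell genes 1 was higher (Calb1), 1 was lower and 4 were neither, with a median log2 ratio of -0.16. Of 5 Mueller glia genes none was 2-fold higher or lower in every retina, and the microglia and endothelial genes on the panel, 2 and 1, were all lower. Of the 6 general RGC genes on the panel none was at least 2-fold higher in every retina, 1 was lower and 5 were neither. They summed to between 878 and 952 per 10000 puncta, against 795 to 850.

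A small set of the cells went against the label. Among the 15 genes with the highest ratio against the other types, Pcp2 (1.13 ± 0.76), Gsg1 (1.04 ± 0.67), Grm6 (0.91 ± 0.82) and Trpm1 (0.91 ± 0.64) are known from bipolar cells, the interneurons that drive RGCs, and Lhx1 (1.06 ± 0.78) from horizontal cells. None of the 5 was 2-fold higher in every retina, and their ratios varied more over retinas than those of the 9 genes above. Trpm1, the transduction channel of ON bipolar cells, gave 0.157, 0.451, 0.820, 0.384 and 0.407 puncta per 16_ooDS_DV cell in retinas 1 to 5, so retina 1 was low and retina 3 high. Of the 11 bipolar genes listed, none was 2-fold higher or lower in every retina. Their summed level was between 91.2 and 172 per 10000 puncta over the retinas, with a median of 125, in 16_ooDS_DV and between 89.9 and 111, with a median of 101, in the mean of the other types.

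The bipolar signal sat in few cells. Of that list, 7 genes (Vsx1, Otx2, Grm6, Trpm1, Cabp5 and Gsg1 among them) were summed per cell, and 159 cells of 16_ooDS_DV (2.70%) held at least 10 of these puncta. The 7 genes and the limit of 10 were chosen after the values were seen. They numbered 6, 56, 43, 42 and 12 in retinas 1 to 5, which is 0.416%, 3.03%, 6.30%, 3.33% and 1.82% of the type there. Over all types 644 cells (0.490%) reached the limit, and 24.7% of those were 16_ooDS_DV cells. The share was 0.605% in 14_ooDS_Cck, and 10_Novel alone had a larger one than 16_ooDS_DV, at 3.24%. Single outlines made up 154 of the 159. What these cells are was not tested.

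These 159 cells had few puncta of the type's 3 markers and of 5 of the 6 general RGC genes. They averaged 0.176 puncta of Mmp9, 0.044 of Tfap2d and 0.182 of Gabrg3, against 7.55, 1.34 and 2.92 in the other cells of the type. Slc17a6, the glutamate transporter gene of RGCs, averaged 1.04 puncta in them, against 16.5 in the other cells, and the RGC marker Rbpms averaged 0.428, against 7.85. No Mmp9 punctum was found in 151 of them. The sixth of these, Isl1, also on the bipolar list, averaged 1.81 puncta in the 159 cells and 1.76 in the others. Calb1 and Pcdh11x were at 8.45 and 3.91 puncta in the 159 cells and 8.09 and 7.12 in the others. Their median depth was 187 puncta, against 356 in the other cells.

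With cells of 10 or more bipolar puncta left out of every type, Pcp2 and Lhx1, which were not among the 7 summed genes, stood at 0.10 ± 0.39 and 0.15 ± 0.43 against the other types. Gsg1, Grm6 and Trpm1 were among the 7, so their fall is fixed by the choice of cells, and they stood at -0.05 ± 0.22, -0.29 ± 0.20 and -0.12 ± 0.08. The counts of genes past 2-fold in every retina were 9 higher and 60 lower, of which 65 were past 2-fold with all cells too, and Mmp9 stood at 2.44 ± 0.11. The 159 cells stay in all values that follow unless they are said to be left out.

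**Figure D3:**
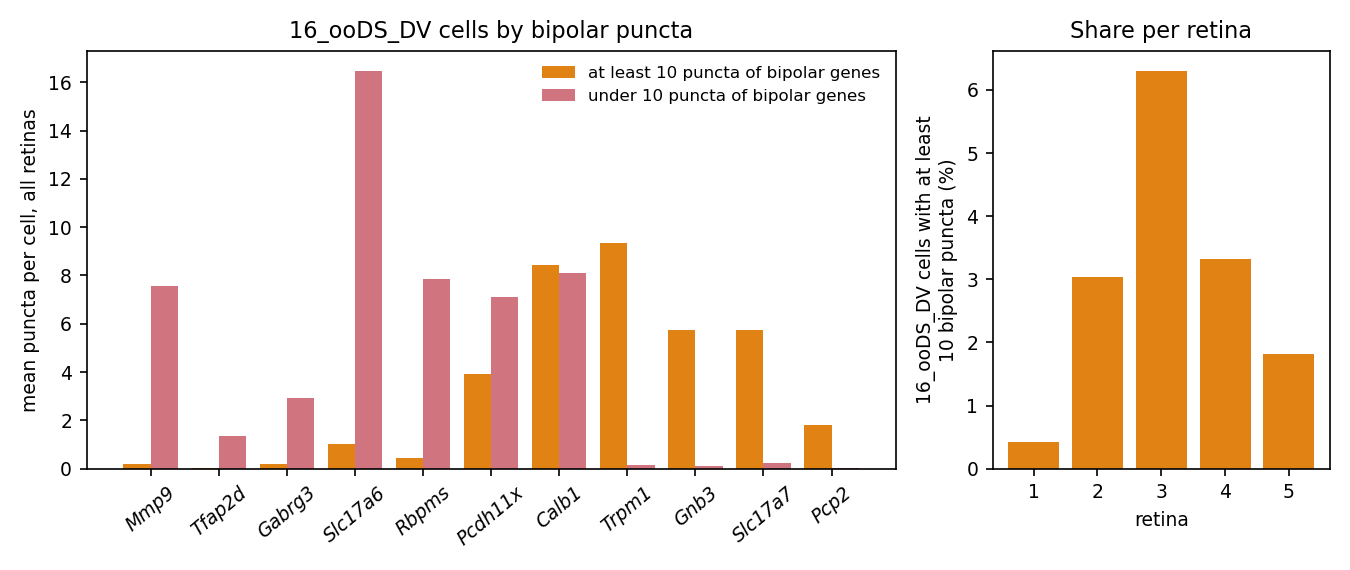
Left, mean puncta per cell (y axis) of 11 genes in 16_ooDS_DV cells with at least 10 puncta of 7 bipolar genes and in those with fewer, all retinas together. Right, the percentage of 16_ooDS_DV cells with at least 10 such puncta in each retina. The 159 cells have 0.176 puncta of Mmp9 and 9.35 of Trpm1 on average, the other cells 7.55 and 0.154. Trpm1 is among the 7 genes that chose the cells, so its difference is fixed by that choice.

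The genes that varied most among the cells of the type included genes of the bipolar list. Variance beyond counting noise, over the squared mean and with the depth of each cell as exposure, was computed for 188 genes with at least 0.2 puncta per cell. The 8 highest were Gnb3, Trpm1, Rpgrip1, Ptgds, Otx2, Tmem215, Neurod4 and Slc17a7, of which Gnb3, Trpm1 and Otx2 are genes of bipolar cells and photoreceptors and Slc17a7 is their vesicular glutamate transporter. Their excess was between 7.00 (Slc17a7) and 11.8 (Gnb3), against a median over the 188 genes of 0.415 in 16_ooDS_DV and 0.390 in 14_ooDS_Cck. Each of the 8 was at 0 in 81.7% to 89.5% of the cells and reached 14 to 32 puncta in single cells.

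The share of the type did not differ measurably between the sides of any axis of the retina. Positions are the deposited coordinates, with no unit stated. The labels do not say which anatomical direction the X and Y axes run in. The share was 4.44% ± 0.24 in the periphery (distance above 0.5) and 4.78% ± 0.65 in the centre (SD, n = 5 retinas). The log2 difference was -0.10 with a standard error of 0.06 (adjusted p = 0.24, edgeR quasi-likelihood test with the retina as a block). Retina by retina the periphery held 4.17%, 4.39%, 4.72%, 4.27% and 4.66%, against 3.90%, 4.71%, 5.64%, 5.10% and 4.55% in the centre, so 2 of 5 retinas were higher in the periphery. In steps of 0.2 in distance the mean share was 5.07% ± 0.88 nearest the centre, then 4.67% ± 0.49, 4.79% ± 0.50 and 4.44% ± 0.26, and 3.99% ± 0.31 beyond 0.8. The retinas ranged between 4.27% and 6.44% nearest the centre and between 3.51% and 4.30% beyond 0.8. A trend over these steps was not tested. Of the 45 types, 19 (42.2%) passed the test along this axis, 12_ooDS_NT among them with a log2 difference of -0.23 (adjusted p = 0.0040), and 14_ooDS_Cck had -0.03 (adjusted p = 0.62).

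Along X the share was 4.62% ± 0.41 on the positive side and 4.57% ± 0.39 on the negative side (log2 difference 0.01 with a standard error of 0.04, adjusted p = 0.98, edgeR), while 13 of 45 types (28.9%) passed. Along Y it was 4.74% ± 0.32 on the positive side and 4.49% ± 0.58 on the negative side (0.09 with a standard error of 0.06, adjusted p = 0.31, edgeR), and 0 of 45 types passed, 16 at an unadjusted p under 0.05 and 3 with DESeq2. The share by quadrant was between 4.49% and 4.84%.

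**Figure D4:**
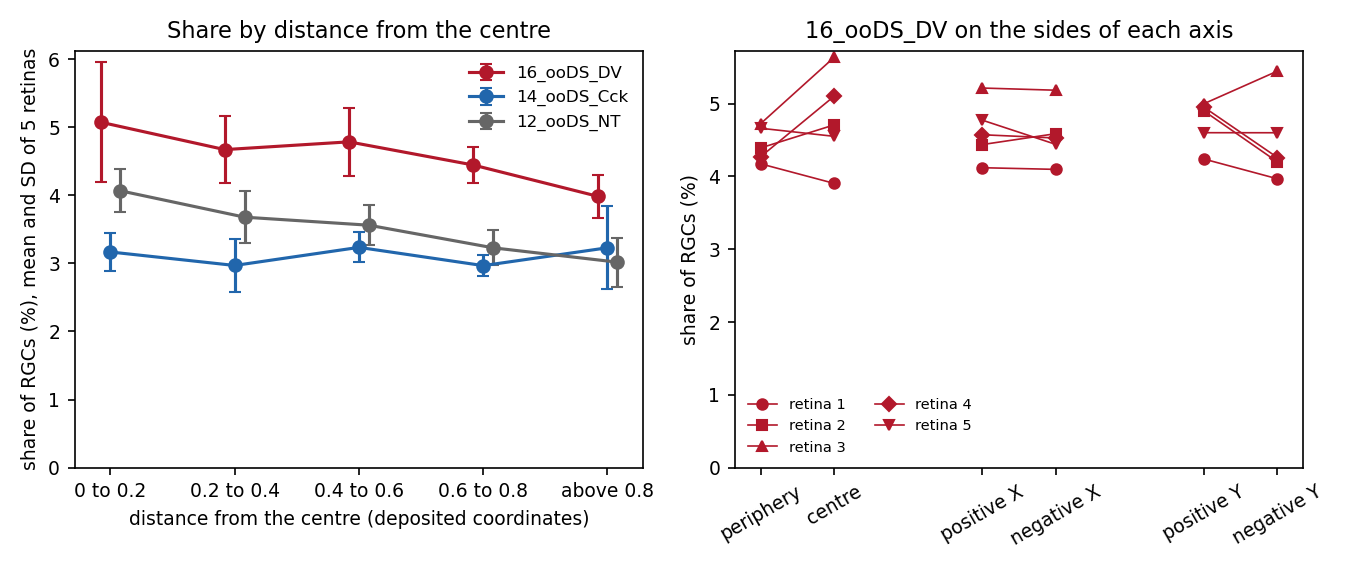
Left, share of RGCs (y axis, percent, mean and SD of 5 retinas) by distance from the centre (x axis) for 16_ooDS_DV, 14_ooDS_Cck and 12_ooDS_NT. Right, share of 16_ooDS_DV on both sides of the radial, X and Y axes, with 1 line per retina. The share of 16_ooDS_DV is 5.07% nearest the centre and 3.99% beyond 0.8, and the lines of the retinas cross on all 3 axes.

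Within the type, few genes differed with position. Along the radial axis 3 of 283 tested genes passed (1.06%), of which 2 were higher in the periphery (0.707%) and 1 was lower (0.353%), whereas 49 had an unadjusted p under 0.05 and 2 passed with DESeq2. Over all type and gene pairs tested on this axis 2.21% passed. Fxyd6, a regulator of the sodium pump, was at 22.7, 24.0, 19.9, 21.6 and 36.8 per 10000 puncta in the periphery, against 20.2, 15.9, 17.7, 13.0 and 20.2 in the centre. It was higher in the periphery in 5 of 5 retinas, by 0.54 on the log2 scale with a standard error of 0.10 (adjusted p = 0.014, edgeR). Spc25, a kinetochore component, was at 147, 140, 126, 104 and 144 in the periphery, against 114, 119, 118, 92.1 and 127 in the centre, a log2 difference of 0.24 with a standard error of 0.05 (adjusted p = 0.025, edgeR). Cpne4, a calcium-dependent membrane-binding protein of the copine family, was at 19.1, 19.6, 15.8, 17.1 and 16.9 in the periphery, against 23.4, 25.1, 21.6, 20.1 and 20.7 in the centre (-0.30, standard error 0.07, adjusted p = 0.041, edgeR). All 5 retinas moved the same way for each of the 3 genes.

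The differences of these genes were not shown to be particular to the type. Fxyd6 passed in 26 of the 37 types tested, Spc25 in 17 and Cpne4 in 3, always in the same direction as in 16_ooDS_DV. In 14_ooDS_Cck the log2 differences were 0.37 for Fxyd6 (adjusted p = 0.032, edgeR), 0.19 for Spc25 (adjusted p = 0.084, edgeR) and -0.33 for Cpne4 (adjusted p = 0.097, edgeR). A test of whether the radial difference itself differs from that of all other RGCs passed for 0 of 300 genes, with 21 at an unadjusted p under 0.05 and 0 with DESeq2. Its log2 difference of differences was -0.01 for Fxyd6 and -0.01 for Spc25 (adjusted p = 0.996 for each, edgeR), and -0.20 for Cpne4 (adjusted p = 0.80, edgeR). The lowest adjusted p was that of the forkhead factor Foxp2, at 0.060 with a log2 difference of -0.67. The same test against 14_ooDS_Cck passed for 0 of 289 genes, with 26 at an unadjusted p under 0.05 and 0 with DESeq2.

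The radial count and its genes depended on the cells and retinas used. Cpne4 did not pass without any 1 of retinas 2, 3, 4 and 5, and neither Cpne4 nor Spc25 passed without joined outlines (adjusted p = 0.076 and 0.087, edgeR). Spc25 did not pass in DESeq2 (adjusted p = 0.14), and Fxyd6 did not pass without retina 2 or 4 (adjusted p = 0.084 and 0.080, edgeR). Without retina 2, without retina 4 or without the retina block it was 0, without retina 3 or without retina 5 it was 5, and with cells of 10 or more bipolar puncta left out it was 9. The 9 held Fxyd6, Spc25 and Cpne4 and, among those named here after their values were seen, Cxcl14, Penk, Spp1, Stk32a and Syt6.

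Along X, 1 of 290 genes passed (0.345%), with 39 at an unadjusted p under 0.05, and 1 with DESeq2. Spp1, which encodes the secreted protein osteopontin, was at 22.0, 20.7, 25.3, 22.1 and 33.8 per 10000 puncta on the positive X side, against 15.3, 12.1, 21.9, 14.5 and 21.2 on the negative side. It was higher in 5 of 5 retinas, by 0.54 on the log2 scale with a standard error of 0.08 (adjusted p = 0.030, edgeR). It passed in 5 of 34 types. Spp1 did not pass without retina 1, 2 or 4, where the count of genes was 0, nor with cells of at least 200 puncta (adjusted p = 0.075, edgeR), with the middle of the axis left out (adjusted p = 0.068, edgeR), without the retina block or with sections as the block. Without retina 3 the count was 3 and without retina 5 it was 2. The X difference passed for 0 of 300 genes against all other RGCs, with 15 at an unadjusted p under 0.05 and 0 with DESeq2. Against 14_ooDS_Cck it passed for 0 of 289, with 9 at an unadjusted p under 0.05 and 0 with DESeq2.

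Along Y, 0 of 292 genes passed in edgeR, with 45 at an unadjusted p under 0.05 and 0 with DESeq2. The log2 differences of the markers, positive Y side over negative side, were -0.13 for Mmp9, -0.17 for Tfap2d and -0.17 for Gabrg3 (adjusted p = 0.40, 0.39 and 0.36, edgeR). Calb1 was at 180, 191, 203, 208 and 201.3 per 10000 puncta on the positive side, against 245, 251, 219, 251 and 171 on the negative side. It was lower on the positive side in retinas 1 to 4 and higher in retina 5 (-0.26, standard error 0.10, adjusted p = 0.38, edgeR). Without retina 5 the count along Y was 3, namely Calb1, Pou4f3 and Vgf, and with sections in place of retinas as the block it was 17. Those 17 held Calb1 (-0.26, adjusted p = 0.023, edgeR), the marker Gabrg3 (-0.17, adjusted p = 0.022, edgeR) and Cbln4 (-0.40, adjusted p = 0.050, edgeR). The lowest adjusted p of the 17 was that of Syt6 (1.26, adjusted p = 3.3e-04, edgeR). With the retina as the block Cbln4 had an adjusted p of 0.46 (edgeR). Sections of the same retina are not independent, so p-values with sections as the block overstate the replication. The Y difference passed for 0 of 300 genes against all other RGCs, with 8 at an unadjusted p under 0.05 and 0 with DESeq2, and for 0 of 289 against 14_ooDS_Cck, with 17 and 0.

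The cell bodies were outlined at a larger volume than those of 14_ooDS_Cck. The unit of volume is not stated. The median volume of 16_ooDS_DV cells was 729, 701, 743, 626 and 762 in retinas 1 to 5, against 595, 548, 587, 512 and 601 for 14_ooDS_Cck and 607, 606, 637, 530 and 627 for the median of the 44 other types. Every retina of 16_ooDS_DV was above every retina of 14_ooDS_Cck. The ratio to 14_ooDS_Cck was 1.25-fold (log2 ratio 0.32 ± 0.03, higher in 5 of 5 retinas, exact two-sided sign-flip permutation test p = 0.0625, which is the smallest p that 5 retinas allow). The ratio to the other types was 1.18-fold (0.24 ± 0.03, 5 of 5 retinas, exact p = 0.0625).

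Some cells carry a name that marks joined outlines, and these were frequent in the type. They were 19.7%, 23.3%, 16.1%, 21.4% and 22.7% of 16_ooDS_DV cells in retinas 1 to 5, against 11.05%, 11.3%, 6.24%, 9.23% and 9.89% of 14_ooDS_Cck cells and 10.8% of all cells. Only 43_AlphaONS and 45_AlphaOFFT had a larger share. Joined cells had more puncta of Mmp9, 11.2 per cell against 6.33 in cells with a single outline. These counts are not scaled to the depth of the cells, so they do not show a higher Mmp9 level. Over single outlines alone, the volume was 0.21 ± 0.05 above 14_ooDS_Cck and 0.13 ± 0.04 above the other types on the log2 scale, in 5 of 5 retinas, and the type moved to the 13th largest instead of the eighth.

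The cells of the type lay near one another less often than their share of the sections would give. The RGCs within 30 units of a 16_ooDS_DV cell (the median distance to the 10th nearest RGC is 29.2, and the unit is that of the deposited positions) were 16_ooDS_DV in 2.64%, 2.86%, 3.8%, 3.04% and 3.24% of cases in retinas 1 to 5, against 4.10%, 4.50%, 5.07%, 4.55% and 4.56% expected. The log2 ratio was -0.56 ± 0.10 and below 0 in 5 of 5 retinas (exact two-sided sign-flip permutation test p = 0.0625). The ratio in cells with single outlines was -0.55 ± 0.12.

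The shortage was steepest at short range. At 0 to 10 units 10 same-type neighbours were counted, each pair from both of its cells, against 198 expected. At 10 to 20 units the ratio of observed to expected was 0.542 ± 0.031, at 20 to 30 units 0.856 ± 0.085, and at 60 to 70 units 0.971 ± 0.097 (SD, n = 5 retinas). At 0 to 10 units the mean ratio was 0.063 in 16_ooDS_DV. It was higher in 14_ooDS_Cck, at 0.399 (42 against 104 expected), and in 12_ooDS_NT, at 0.283 (32 against 132), a difference that was not tested. Joined outlines made up 20.6% of 16_ooDS_DV, 9.53% of 14_ooDS_Cck and 13.8% of 12_ooDS_NT cells (means of 5 retinas). Whether joining removed close pairs of the same type was not tested, and leaving joined cells out does not restore such pairs. For 14_ooDS_Cck the ratio was 0.385 ± 0.214 at 10 to 20 units, 0.478 ± 0.101 at 20 to 30 and 0.545 ± 0.104 at 30 to 40, where 16_ooDS_DV was at 0.783 ± 0.060. Within 30 units the log2 ratio of 14_ooDS_Cck was -1.26 ± 0.49 and that of 12_ooDS_NT -0.83 ± 0.15. The difference, 16_ooDS_DV minus 14_ooDS_Cck, was 0.70 ± 0.48 and above 0 in 5 of 5 retinas, and that to 12_ooDS_NT was 0.27 ± 0.15, also in 5 of 5 (exact two-sided sign-flip permutation test p = 0.0625 for each). In order of the ratio, lowest first, 16_ooDS_DV was the 34th of the 45 types.

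**Figure D5:**
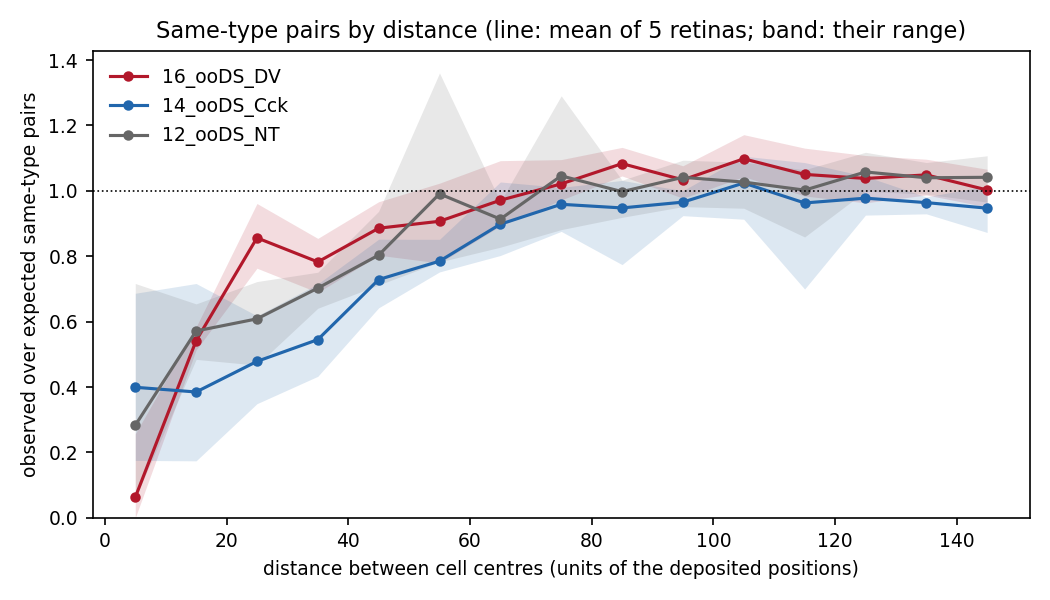
Observed over expected same-type pairs (y axis) by distance between cell centres (x axis, units of the deposited positions) for 16_ooDS_DV, 14_ooDS_Cck and 12_ooDS_NT. Lines are means of 5 retinas, bands their range, and the dotted line marks 1. The 16_ooDS_DV curve reaches 0.856 at 20 to 30 units, where 14_ooDS_Cck is at 0.478.

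The deposited distance to the nearest cell of the same type had a median of 45.8, 45.7, 42.8, 43.5 and 41.4 units in 16_ooDS_DV, against 63.3, 69.1, 58.6, 64.7 and 60.0 in 14_ooDS_Cck. The groups did not overlap. The type is also the more frequent of the pair, so a shorter distance and a larger share cannot be told apart in these values.

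Of the 45 types tested around 16_ooDS_DV cells, 3 (6.67%) passed (limma on log2 ratios of the 5 retinas). These were the type itself (-0.56, adjusted p = 2.3e-04), 44_Novel (-1.23 with a standard error of 0.19, adjusted p = 0.0084, below 0 in 5 of 5 retinas) and 24_Novel (0.18 with a standard error of 0.03, adjusted p = 0.015, above 0 in 5 of 5). These ratios rest on 57 neighbours of type 44_Novel, against 136 expected, and on 1510 of type 24_Novel, against 1332 expected. With the expected share taken in a wider ring around each cell, only the type itself passed. Neither 14_ooDS_Cck nor 12_ooDS_NT passed.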

How the data were processed

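Counts of puncta per gene and cell were taken as deposited by the authors in 1 table, beside the type, retina, section, volume and position of each cell. Per the labels, they were measured on 10x Xenium. The software for segmentation and type assignment, and how outlines were joined, are not given in the sources used here. No label ties a retina to a deposited sample, so the retina was the replicate. The cells and gene lists were chosen with earlier results of these data known. For position, counts were summed per type, retina and side of an axis (types with at least 50 cells in each), filtered with filterByExpr, TMM-scaled and tested with edgeR's quasi-likelihood test with the retina as a block. P-values within types were Benjamini-Hochberg adjusted over all type and gene pairs of an axis, with 0.05 as the threshold. In the comparisons of differences with other RGCs or 14_ooDS_Cck, the adjustment ran over the genes of each comparison. In types' shares the adjustment ran over the 45 types. Neighbour types were tested with limma, and DESeq2 was an alternative. Genes named were the 15 highest and 10 lowest by log2 ratio against the other types, the 10 and 10 against 14_ooDS_Cck, those called along an axis, and the receptor genes listed, needing 100 puncta and 1 sign in every retina where ranked. On simulated counts the radial fit called 68.0% of 1.2-fold and 95.7% of 1.5-fold changes among 282 genes. In that simulation only 94 of the genes were unchanged, and the adjustment ran over the genes of this type alone. Both make passing easier than in the reported fits, so these shares do not give the power of those fits. Tools were R 4.3.3, edgeR 4.0.16, limma 3.58.1, DESeq2 1.42.0, Python 3.11.15 and scipy 1.17.1. Values of a few listed genes are not reported here.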

Additional observations from a re-analysis of the deposited data

Results flagged for a closer look

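Of 41 series of 5 retina values examined, 1 had a retina far from the others. Tbx20, a T-box transcription factor gene of photosensitive RGCs, averaged 0.107 puncta per 16_ooDS_DV cell in retina 3, against 0.0523 to 0.0660 in the other retinas. The gap was 0.749 of the whole range, above Dixon's critical value of 0.71. Chance flags about 1 in 20 such series.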

How the results depend on the processing

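Of the alternative values of the main results, 162 kept their direction and their place, 37 moved and 3 changed sign. Genes past 2-fold in every retina numbered 52 to 75 against the other types and 42 to 49 against 14_ooDS_Cck over the alternatives. Within the type, the radial count of 3 became 8 with cells of at least 200 puncta, 9 with under 10 bipolar puncta, 12 with sections as the block and 0 with no replicate block, and was 0 to 5 without 1 retina. The X count of 1 became 0 with no replicate block and 0 with sections as the block, and was 0 to 3 without 1 retina. The Y count of 0 became 17 with sections as the block and was 0 to 3 without 1 retina. The retina is shared by both sides of an axis, so the block pairs them. Sections of the same retina are not independent replicates. Without the block the log2 difference in share was 0.01 along X, 0.09 along Y and -0.11 along the radial axis. Without TMM, 1 gene passed in the comparison of differences with all other RGCs along X (Rprm) and 1 along the radial axis (Foxp2), and 1 in that with 14_ooDS_Cck along the radial axis (Gprc5b). Without 1 retina, these counts were 0 to 5 along Y and 0 to 1 along the radial axis against 14_ooDS_Cck, and 0 to 1 along Y against all other RGCs. The X share difference changed sign with TMM (-0.054), with cells of at least 200 puncta (-0.023) and without retina 5 (-0.0085, the range without 1 retina being -0.0085 to 0.031). The log2 ratio of same-type neighbours was -0.68 with cells of at least 200 puncta, -0.30 at double the radius and -4.03 at radius 15, where 0.5 was added. Neighbour types called were 10 at double the radius, 1 with the wider ring and 2 to 5 without 1 retina. The share of the type was 4.07% without joined outlines. The log2 volume ratio to 14_ooDS_Cck was 0.21 without joined outlines, 0.36 with means and 0.28 within sections. That to the other types was 0.13 without joined outlines, 0.27 with means and 0.30 with cells of at least 200 puncta. With under 10 bipolar puncta the ratios of Grm6 (-0.29), Gsg1 (-0.046) and Trpm1 (-0.12) against the other types changed sign, which the choice of cells by these same genes builds in. The cells without joined outlines and with under 10 bipolar puncta were chosen after seeing the data. The cause was not tested for the others. With 5 retinas the sign-flip test cannot go below 0.0625.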

Other observations

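Calb1, the calcium buffer gene that sets 16_ooDS_DV apart from the other ON-OFF types, differed with Y in retinas 1 to 4 and ran the other way in retina 5. Without retina 5 its log2 difference, positive Y side over negative side, was -0.37 with a standard error of 0.07 (adjusted p = 0.049, edgeR), and with all 5 retinas it was -0.26 (adjusted p = 0.38, edgeR, with the retina as the block, and 0.023 with sections as the block). Without retina 5 the Y difference of Calb1 also passed when compared with that of all other RGCs and with that of 14_ooDS_Cck. With all 5 retinas these comparisons had adjusted p = 0.94 and 0.56 (edgeR). Retina 5 was the only one that ran the other way, so leaving it out favours a pass, and these passes give no support. Calb1 was singled out after its values were seen.

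Beyond the distance at which same-type neighbours were scarce, 16_ooDS_DV pairs were slightly above the number expected. At 80 to 90 units the ratio of observed to expected was 1.08 ± 0.03 and at 100 to 110 units 1.10 ± 0.05 (SD, n = 5 retinas), above 1 in each retina, against 0.948 ± 0.103 and 1.02 ± 0.07 in 14_ooDS_Cck. These steps were chosen after the values were seen and the difference was not tested. Farther out the 16_ooDS_DV ratio was 1.06 at 150 to 160 units, 1.07 at 170 to 180, 0.998 at 180 to 190 and 1.06 at 190 to 200. The slight excess was thus not confined to the chosen steps.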
